A study of Mus musculus with 6 samples.

Results

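Integrins are the cell surface receptors through which basal mammary cells hold on to the basement membrane, and focal adhesion linkers are the proteins that tie those receptors to the actin cytoskeleton. RNA-seq counts for these genes were examined in sorted mammary cells of pubertal mice. Members were chosen by symbol: every integrin alpha chain, the 8 beta chains Itgb1 to Itgb8, and 12 linkers (Tln1, Tln2, Vcl, Ilk, Parva, Parvb, Fermt1, Fermt2, Fermt3, Pxn, Ptk2 and Zyx). This gave 38 members, 18 alpha chains, 8 beta chains and 12 linkers, of 55291 symbols in the count tables, and all 38 had counts. Of these, 36 passed the filter on low counts, and Itga4 and Itgad did not.

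The study compared CD49f-high cells sorted from mammary glands of 6-week-old Adgra3-lz/+ mice into 3 groups of 2 libraries each. Gpr125-negative cells formed the first, and Gpr125+ cells formed the others, 1 TEB-distal and 1 nipple-proximal. Adgra3 encodes the adhesion receptor Gpr125, and in these mice 1 allele carries lacZ, so that β-galactosidase activity, read with a fluorogenic substrate, sorted Gpr125+ from Gpr125-negative cells. Every mouse, those of the negative group included, was heterozygous for the reporter, on an FVBN background. Glands were divided at the lymph node into a distal part, which holds the terminal end buds (TEB), and a nipple-proximal part, and cells bearing CD31, CD45 or Ter119 were gated out. The antibody panel of the study also held CD140a, the Pdgfra antigen of fibroblasts, but the description of this sort does not list it among the gates. Each library came from the pooled glands of 5 mice, so a replicate is a pool. The labels give no region for the negative libraries, and both Gpr125+ groups were compared with the same 2 libraries.

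An integrin is a pair of 1 alpha and 1 beta chain. Most alpha chains of epithelial cells pair with β1. The α6β4 pair is the receptor of hemidesmosomes, the stable anchors that join keratin filaments to laminin, and α6 is the CD49f antigen used to sort basal mammary cells. Talin and kindlin (Fermt) bind beta chain tails and switch integrins on, vinculin, paxillin and zyxin build the focal adhesion, focal adhesion kinase (Ptk2) signals from it, and Ilk and the parvins link it to actin. In the mammary gland β1 and α6 mark basal cells with regenerative capacity, and β3 (CD61) is used as a marker of luminal progenitors.

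Library depth was 20134890 to 37296640 counts, at which 3 counts correspond to 0.0804 to 0.149 CPM (counts scaled to library size). Levels below are normalized CPM unless another scale is named. Pearson's r of log2 CPM across genes, within a group, was 0.733 between negative, 0.791 between TEB-distal and 0.933 between nipple-proximal libraries. Adgra3 counts were 1658 and 550 for negative, 385 and 142 for TEB-distal and 391 and 262 for nipple-proximal libraries. The Gpr125 gene was thus not shown to be higher in the libraries labelled Gpr125+, with a log2 fold change of -1.45 for TEB-distal cells (edgeR, unadjusted p = 0.152) and -0.78 for nipple-proximal cells (unadjusted p = 0.411). In the reporter allele lacZ replaces exons that follow those of the extracellular domain, and the other allele is intact. How far the reporter transcript was counted is not given in the sources used here. Why these counts were not higher in the libraries labelled Gpr125+ was not tested, and each direction below is between libraries as labelled.

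Some marker lists moved with the groups and others did not. Negative libraries were apart from all others in the endothelial, leukocyte and, narrowly, basal sums. They overlapped another group in the luminal, fibroblast and pericyte sums. The 12 endothelial markers summed to 804 to 1160 CPM for negative, 21.7 to 23.6 for TEB-distal and 30.2 to 241 in nipple-proximal libraries, and Pecam1, the CD31 antigen, stood at 43.4 and 56.2 CPM in the negative libraries in spite of the gate. The 12 basal markers summed to 3393 to 3554 CPM for negative, 4017 to 23031 for TEB-distal and 9449 to 14952 for nipple-proximal libraries, so basal markers were present in every library. The sums were 84.8 to 93.4, 147 to 314 and 121 to 203 for 12 leukocyte markers, 1497 to 2662, 2757 to 3128 and 2400 to 3019 for 12 luminal markers, 29.2 to 148, 93.7 to 194 and 60.7 to 84.5 for 10 fibroblast markers, and 9.9 to 24.4, 1.67 to 5.26 and 2.9 to 22.8 for 7 pericyte markers, in the same order of groups. The platelet and erythroid markers summed to at most 2.85 CPM, and 4 of these 7 genes had counts, while Ppbp and Gp1bb, which mark platelets, were at 0. The platelet gene Gp9, the 1 gene of them that passed the filter, was higher in both negative libraries than in the 4 others (log2 fold change -2.02 and -3.83). The part of these cell types in the results below was not tested.

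Compared per length, as mean RPKM over the 6 libraries, Itgb1 was the highest member (185), followed by Itga3 (48.6), Fermt2 (41.7), Zyx (31.9), Itgb4 (30.7) and Tln1 (21.6). Itga5 (15.8), Itgav (14.7), Parva (14.5), Itga6 (11.9) and Itgb5 (10.3) came next. At the low end stood alpha chains of leukocyte integrins, with Itgam at 0.198, Itgal at 0.147, Itgax at 0.145, Itgae at 0.0905, Itgad at 0.0237 and Itga4 at 0.00886 mean RPKM. Their beta chains Itgb2 (1.3) and Itgb7 (0.48) were higher. Tln2 (0.113) and Itgb6 (0.139) were as low. The order changed between libraries: Itga3 was the highest alpha chain per length in 4 of them, but stood below Itgav in negative replicate 2 and TEB-distal replicate 1.

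**Figure D1:**
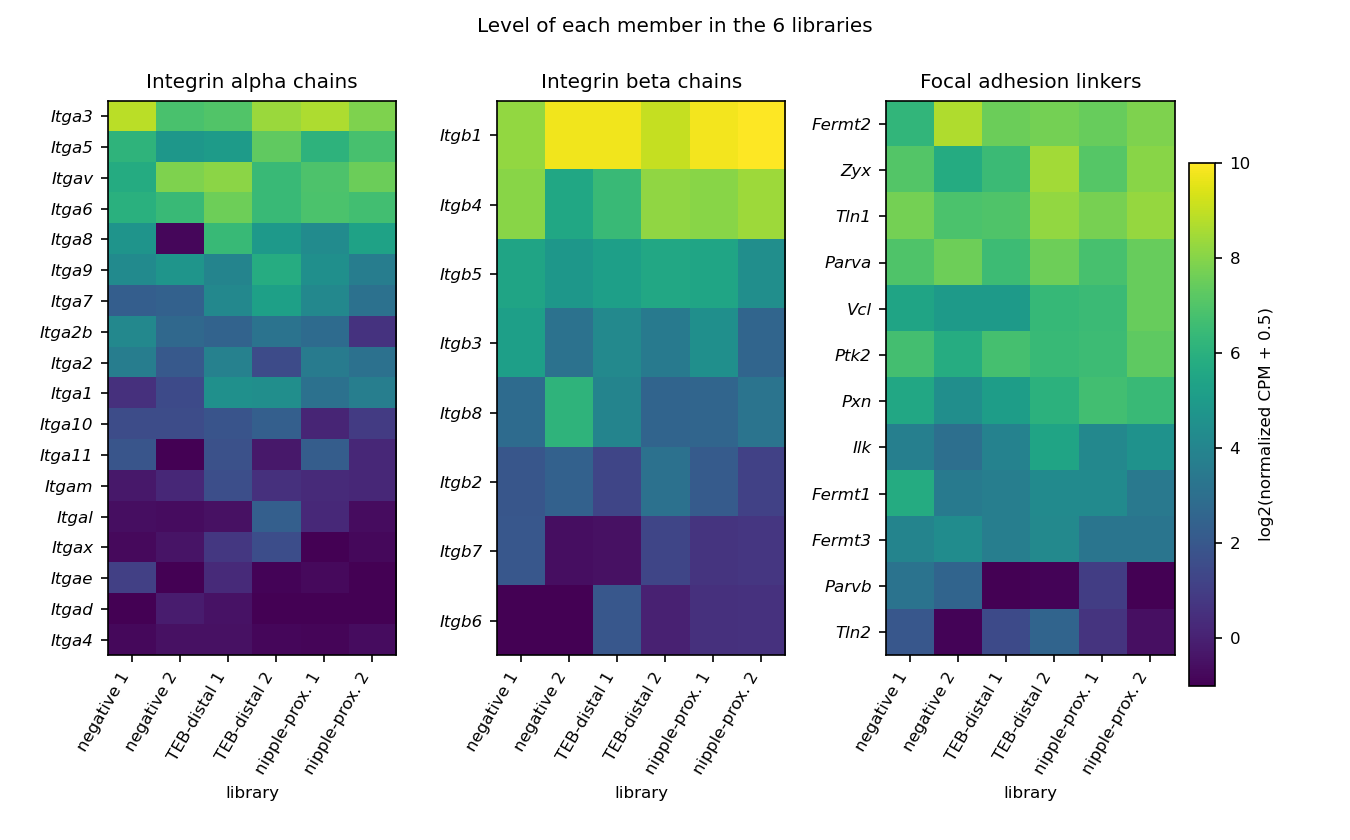
Level of each of the 38 members in the 6 libraries, as log2(normalized CPM + 0.5) in colour, in panels for alpha chains, beta chains and linkers, ordered by mean RPKM. Itgb1 is the highest beta chain in every library, Itgb6 is dark in both negative libraries, and Parvb is dark in both TEB-distal libraries.

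The first question was whether TEB-distal Gpr125+ cells differ from Gpr125-negative cells in their adhesion genes. The threshold of the study, an adjusted p under 0.1 with at least 2-fold difference, called no member by edgeR's quasi-likelihood test, nor any of the 17268 genes tested (0.0%), and the smallest adjusted p of a member was 0.803. At an unadjusted p under 0.05, Itga1, Itga7 and Itgb6 were higher and Parvb was lower, which is 4 of 36 members beside 6.05% of all genes (3.8% higher and 2.25% lower). DESeq2 on the same 6 libraries called these 4 genes, beside 3.22% of 29282 genes. On the 4 compared libraries it called 3 of them (all but Itga7), beside 2.45% of 27210. DESeq2 was run without the filter on low counts, so its shares include low genes and are not over the 17268. The groups did not overlap in 11 members, 24.0% being the share of all genes, with both TEB-distal libraries above both negative libraries in 10 and below in 1 (Parvb). The 10 were Ilk, Itga1, Itga6, Itga7, Itga8, Itga10, Itgal, Itgam, Itgax and Itgb6. Itgal was only narrowly above, at 0.195 CPM in TEB-distal replicate 1 against 0.172 in negative replicate 1. Itgam and Itgax were low as well, at 0.919 to 2.65 and 1.21 to 2.52 CPM in TEB-distal libraries. Reads were counted without strand, and 2461 of the 2744 exonic bases of Ilk overlap Rrp8 or Taf10 on the opposite strand, while 3450 of the 5024 of Itgam are shared with Gm49368. The median log2 fold change was 0.31 over the 36 members and 0.78 over the 16 alpha chains tested, beside 0.03 over all genes.

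Nipple-proximal Gpr125+ cells were then compared with the same negative libraries. Again 0 members and 0 genes (0.0%) were called by edgeR. DESeq2, without the filter, called 1 member, Itgb6, on 6 libraries (1.1% of 29282 genes) and 0 on 4 libraries (1.16% of 27386). At an unadjusted p under 0.05, Itga1, Itgb6 and Vcl were higher and no member was lower, 3 of 36 beside 3.55% of all genes (2.62% higher and 0.927% lower). The groups did not overlap in 14 members, beside 30.6% of all genes. Both nipple-proximal libraries lay above both negative libraries in 10 of these, 5 of them linkers (Ilk, Pxn, Tln1, Vcl and Zyx). They lay below in Fermt3, Itga10, Itgax and Parvb. Itgax rested on few counts there, 5 and 7 for negative against 0 and 2 for nipple-proximal libraries. The median log2 fold change of the 36 members was 0.23, beside 0 over all genes. Placing Itgb6 at its bound against the negative libraries, where it had no count, left both medians as they were.

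**Figure D2:**
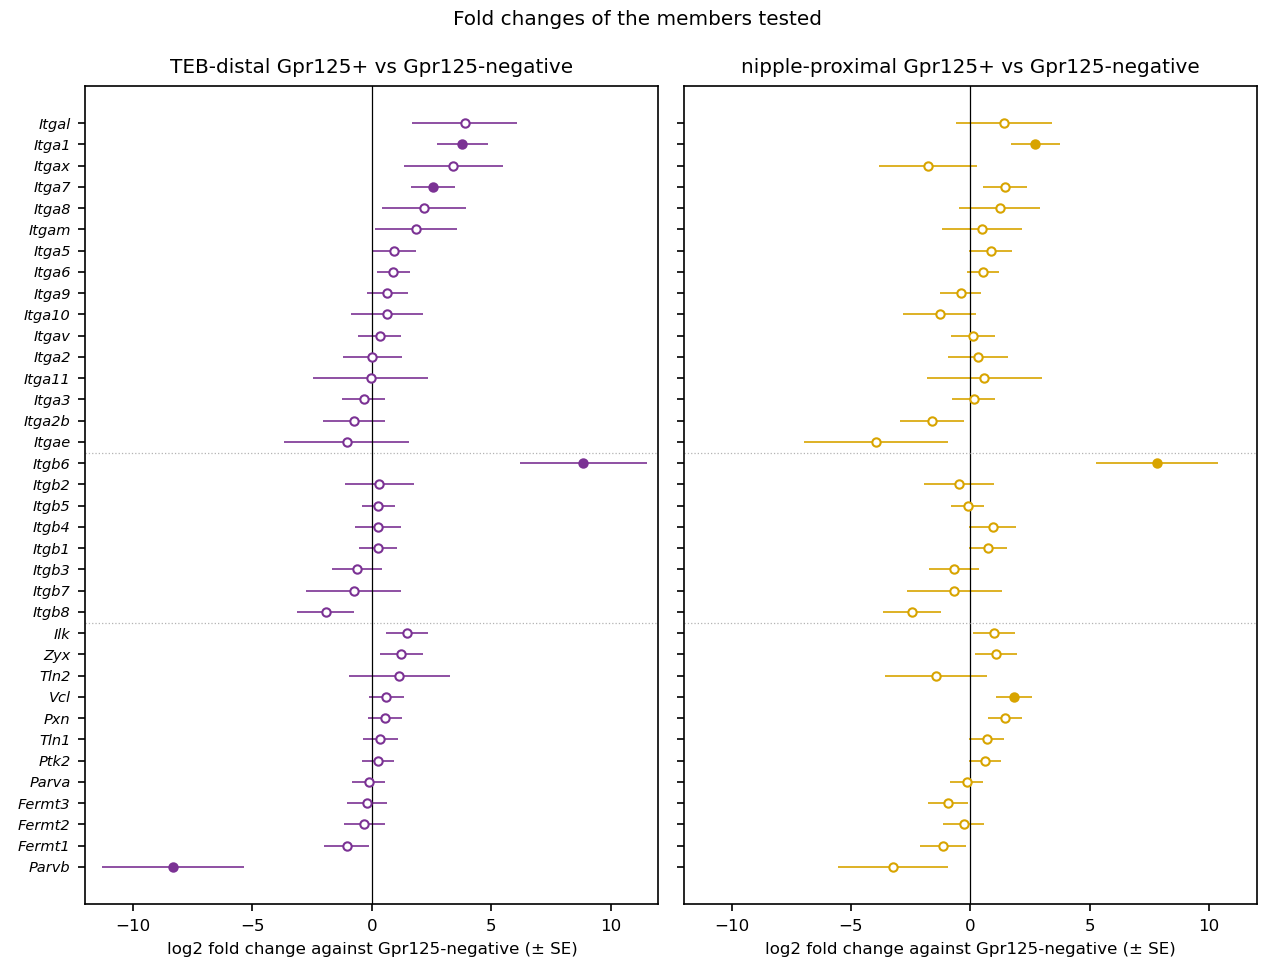
Log2 fold change ± SE (edgeR, horizontal axis) of the 36 members tested, for TEB-distal (left) and nipple-proximal (right) Gpr125+ against Gpr125-negative libraries, with filled points at an unadjusted p under 0.05. The filled points are Itga1, Itga7, Itgb6 and Parvb on the left and Itga1, Itgb6 and Vcl on the right, and those of Itgb6 are fitted against counts of 0 and are no measure of size.

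Itga1 encodes α1, which with β1 forms a receptor for collagen, basement membrane collagen IV included (chr13:114953096-115101964 in mm10). Its counts were 43 and 66 for negative, 578 and 624 for TEB-distal and 166 and 267 for nipple-proximal libraries, or 0.925 and 2.24, 22.5 and 21.2, and 8.15 and 12.6 normalized CPM. The 3 groups did not overlap, with negative lowest and TEB-distal highest. The log2 fold change against negative was 3.79 ± 1.08 (SE) in TEB-distal cells (edgeR, unadjusted p = 0.00804) and 2.71 ± 1.03 in nipple-proximal ones (unadjusted p = 0.0303), neither of which passed after adjustment. Between the 2 Gpr125+ groups it was 1.08 ± 0.98 (edgeR, unadjusted p = 0.301). The other collagen-binding chains did not show this pattern: Itga2, Itga10 and Itga11 had log2 fold changes of 0.02, 0.63 and -0.05 in TEB-distal cells, with SE of 1.25 to 2.41.

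Among the laminin receptors, Itga7 encodes α7, the laminin-binding chain known from muscle (chr10:128933818-128958282). Its levels were 4.45 and 4.84 CPM for negative, 17.1 and 37.8 for TEB-distal and 17.3 and 8.14 in nipple-proximal libraries. Both Gpr125+ groups lay above the negative libraries and overlapped each other. The log2 fold change was 2.56 ± 0.94 (edgeR, unadjusted p = 0.0263) in TEB-distal and 1.45 ± 0.91 (unadjusted p = 0.149) in nipple-proximal cells. Of the 12 basal markers, 6 were higher in TEB-distal than in negative cells at an unadjusted p under 0.05, beside 3.8% of all genes, and these were the contractile genes Acta2, Myh11, Mylk, Tagln, Actg2 and Myl9. Acta2, smooth muscle actin, stood at 190 and 511 CPM for negative, 1437 and 7767 for TEB-distal and 1405 and 3379 for nipple-proximal libraries. Over the 12, the log2 fold change was above 0 in 10 and below 0 in 2, with a median of 2.55 beside 0.03 over all genes. Krt14, a basal keratin, was 1490 and 1194, 807 and 4697, and 3404 and 4257 CPM, and its negative and TEB-distal libraries overlapped. Both TEB-distal libraries were below the negative ones for Trp63, the p63 factor of basal cells. Within the nipple-proximal group Itga7 was higher in replicate 1 and Acta2 in replicate 2.

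Itga6, whose product is the sorted antigen CD49f, had levels of 62.7 and 87 CPM for negative, 191 and 87.7 for TEB-distal and 116 and 102 for nipple-proximal libraries. All 4 Gpr125+ libraries lay above both negative libraries, though TEB-distal replicate 2 was close to the higher negative library. The log2 fold change was 0.9 ± 0.68 (edgeR, unadjusted p = 0.222) in TEB-distal and 0.54 ± 0.67 (unadjusted p = 0.448) in nipple-proximal cells. All groups were gated on this antigen, and the part of the gate in these levels was not tested. Itga3, the laminin-332 receptor chain and the highest alpha chain, had levels of 460 and 115, 127 and 326, and 400 and 236 CPM in negative, TEB-distal and nipple-proximal libraries. The groups overlapped throughout, with a log2 fold change of -0.35 ± 0.89 and 0.14 ± 0.89. Itga5, the next highest alpha chain by mean RPKM, had levels of 71.3 and 28, 31.9 and 158, and 68.2 and 111 CPM. It overlapped between all groups likewise, with a log2 fold change of 0.93 ± 0.9 and 0.85 ± 0.9.

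Itgb6 encodes β6, which pairs with αv to bind fibronectin and to activate latent TGF-β in epithelia (chr2:60598292-60722643). It had 0 and 0 counts for negative, 90 and 15 for TEB-distal and 19 and 21 for nipple-proximal libraries. Every Gpr125+ library held counts and neither negative library did. Against negative libraries set at 3 counts each, the level was at least 24.2-fold higher in TEB-distal and at least 11.6-fold higher in nipple-proximal cells (edgeR, unadjusted p = 0.0128 and 0.0189). TEB-distal replicate 1 held 90 of the 105 TEB-distal counts, and without it the bound was 6.15-fold. Its partner Itgav had levels of 53.7 and 231, 270 and 86.1, and 123 and 182 CPM, which overlapped between all groups.

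Of the other beta chains used as surface markers, Itgb1 was highest in the nipple-proximal libraries, and Itgb4 and Itgb3 overlapped between all groups. Itgb1 (chr8:128685654-128733200) had levels of 296 and 875 CPM for negative, 863 and 528 for TEB-distal and 901 and 1061 for nipple-proximal libraries. Both nipple-proximal libraries lay above the 4 others, narrowly so for the lower one, and the log2 fold change against negative was 0.74 ± 0.8 (edgeR, unadjusted p = 0.381), and in TEB-distal cells 0.25 ± 0.8, which turned negative without negative replicate 1 (-0.47) or TEB-distal replicate 1 (-0.18). Itgb4, the hemidesmosome chain, had levels of 267 and 46.9, 88.1 and 288, and 263 and 339 CPM, a ratio of 5.7 within the negative group that exceeded its differences between groups. Its log2 fold change in TEB-distal cells was 0.26 ± 0.97, and turned negative without negative replicate 2 (-0.51) or TEB-distal replicate 2 (-0.84).

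Itgb3, the CD61 antigen, had levels of 36.1 and 8.26 CPM for negative, 17.7 and 11.2 for TEB-distal and 22.1 and 5.46 in nipple-proximal libraries. All groups overlapped, with log2 fold changes of -0.62 ± 1.06 and -0.69 ± 1.06. Both turned positive, to 0.67 and 0.61, without negative replicate 1. Itgb5, a further partner of αv, had levels of 42.5 and 27.6, 37 and 47.7, and 43.3 and 21.4 CPM and overlapped likewise.

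The shares of the abundant chains varied widely within groups. Itgb1 made up 55.1% and 90% of summed beta chain RPKM for negative, 88.1% and 68.2% for TEB-distal and 79.8% and 82% in nipple-proximal libraries, and Itgb4 29% and 2.81%, 5.23% and 21.7%, and 13.6% and 15.2%. Itga3 made up 67.2% and 31.7%, 22.9% and 44.5%, and 58.3% and 40.2% of summed alpha chain RPKM. Itga6 made up 5.8% and 15.2%, 21.9% and 7.59%, and 10.7% and 11%. The groups overlapped in the share of each of these 4 chains. Among the minor chains, the share of Itga1 was 0.0415% and 0.189%, 1.25% and 0.891%, and 0.365% and 0.658%. That of Itga7 was 0.459% and 0.942%, 2.18% and 3.65%, and 1.78% and 0.98%. For both, all 3 groups were apart, with negative lowest and TEB-distal highest, though negative and nipple-proximal libraries were only narrowly apart for Itga7. Without length correction, the Itga7 share was 2.17% in both TEB-distal replicate 1 and nipple-proximal replicate 1.

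**Figure D3:**
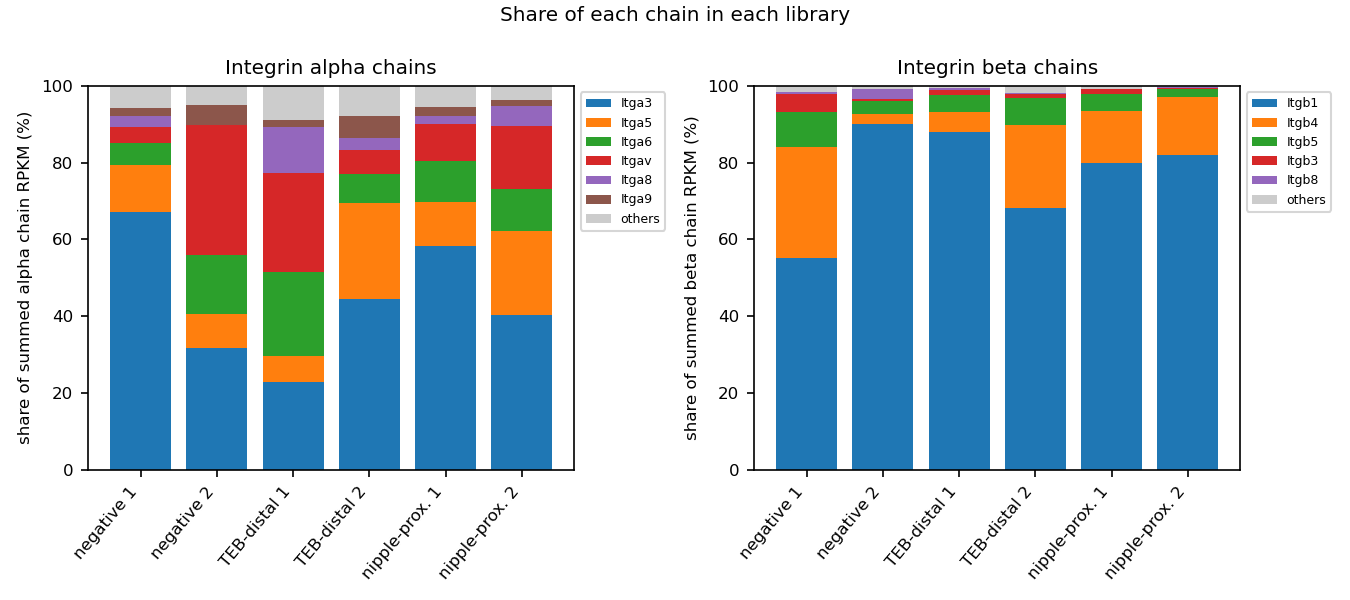
Share of each chain in the summed RPKM of alpha chains (left) and beta chains (right), in percent, 1 bar for each library. Itgb1 ranges from 55.1% to 90% within the negative group alone, and Itga3 from 31.7% to 67.2%.

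Parvb encodes β-parvin, which binds Ilk and actin (chr15:84232043-84315688). Its counts were 402 and 158 for negative, 0 and 1 for TEB-distal and 30 and 0 for nipple-proximal libraries. Only negative libraries and nipple-proximal replicate 1 held more than 1 count. The negative libraries together were 405-fold above the TEB-distal libraries (95% counting interval 72.5 to 16041, 560 against 1 count, edgeR unadjusted p = 0.0239). The summed endothelial markers split the libraries likewise, 804 to 1160 CPM in the negative libraries, 241 in nipple-proximal replicate 1 and 21.7 to 30.2 in the other 3. Their part in the Parvb level was not tested, and in bulk libraries fewer cells of a type and less RNA per cell cannot be told apart. Its paralog Parva, in contrast, stood at 93.8 to 192 CPM in all 6 libraries, with log2 fold changes of -0.14 ± 0.69 and -0.15 ± 0.69.

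Vcl encodes vinculin, which is recruited to adhesions under tension (chr14:20929398-21033676). Its levels were 43 and 31.4 CPM for negative, 31 and 82 for TEB-distal and 89.5 and 173 in nipple-proximal libraries. The nipple-proximal libraries were above all 4 others, with a log2 fold change against negative of 1.82 ± 0.75 (edgeR, unadjusted p = 0.044). In TEB-distal cells it was 0.6 ± 0.73 (unadjusted p = 0.436). The nipple-proximal p rose to 0.0579 with DESeq2 size factors, 0.0605 and 0.0729 with DESeq2 on 6 and 4 libraries and 0.0821 with the replicate block, and it was over 0.05 in 4 of 6 edgeR fits that left out 1 library, up to 0.309 without nipple-proximal replicate 2. Reads were counted without strand, and 2090 of the 8191 exonic bases of Vcl overlap Ap3m1 on the opposite strand.

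Pxn, paxillin, showed the same order, with 48.2 and 20.9, 34.2 and 66.8, and 101 and 86.3 CPM (log2 fold change 1.44 ± 0.72 in nipple-proximal cells, edgeR unadjusted p = 0.081), though it was named after its values were seen. Of the linkers with the highest level, Zyx, zyxin, had 134 and 54.4, 89.9 and 355, and 138 and 260 CPM. Tln1, talin 1, had 210 and 117, 124 and 295, and 215 and 309 CPM. For both, nipple-proximal libraries lay above the negative ones, narrowly for their lowest library, while TEB-distal libraries overlapped them. Fermt2, kindlin 2, had 75.9 and 418, 187 and 209, and 174 and 233 CPM, and both Gpr125+ groups lay inside the range of the negative libraries.

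The serum response factor is a transcription factor that drives cytoskeletal and contractile genes from CArG boxes. Vinculin is among the genes it is known to drive, so the RefSeq windows of 250 bases before each annotated start (GRCm38.p6) were searched for a CArG box, which reads alike on both strands. A box lay in 3 of the 29 windows of 26 members, those of Itgb6, Vcl and Fermt2, beside 482 of 32851 windows of all genes (1.47%). The search was made with the levels known, and a match describes these letters only. The 3 sites are shown 5′ to 3′ on the gene's strand with the box in capitals. They lie at chr2:60673724-60673753 (minus strand, box 50 bases before an internal start of Itgb6), chr14:20929161-20929190 (plus strand, 227 bases before Vcl) and chr14:45530250-45530279 (minus strand, 204 bases before Fermt2).
Itgb6: cacctgacttCCTTATAAGGtgaatgagga
Vcl: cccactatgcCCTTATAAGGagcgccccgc
Fermt2: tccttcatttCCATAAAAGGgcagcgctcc

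Fermt2, with a box, did not separate the groups. Itga1 and Itga7, which were higher in TEB-distal cells at an unadjusted p under 0.05, are not among the 3. However, 12 members had no window to search, so absence from the 3 does not by itself mean that no box is present. The part of the serum response factor in any level was not tested.

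The Gpr125+ cells of both regions were compared next. No member was called by edgeR (0 genes in all, 0.0%) or by DESeq2, without the filter, on 6 libraries (0.441% of 29282 genes) or on 4 (1.31% of 27380). No member had an unadjusted p under 0.05 by edgeR, beside 2.21% of all genes (0.747% higher and 1.46% lower). The groups did not overlap in 9 members, beside 33.5% of all genes. Both TEB-distal libraries lay above both nipple-proximal ones in Fermt3, Itga1, Itga10, Itgam, Itgax and Tln2, and below in Itgb1, Pxn and Vcl. The smallest p belonged to Itgax, the CD11c chain of myeloid cells, with 5 and 7 counts for negative, 31 and 74 for TEB-distal and 0 and 2 for nipple-proximal libraries. TEB-distal libraries held 105 counts together against 2, a ratio of 39.7 (95% counting interval 10.7 to 332, edgeR unadjusted p = 0.0544). The 12 leukocyte markers summed to 84.8 and 93.4 CPM for negative, 147 and 314 for TEB-distal and 203 and 121 for nipple-proximal libraries, and TEB-distal replicate 2 was the highest for both Itgax and this sum. Ptprc, the CD45 antigen, was 1.98 and 2.68, 9.24 and 2.08, and 2.75 and 4.28 CPM. Cd68, a macrophage marker, was the 1 marker of the list with an unadjusted p under 0.05 in TEB-distal against negative cells, where it was higher, beside 3.8% of all genes. The part of leukocytes in the Itgax level was not tested.

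Some low members differed many-fold within a group. Itgal, the LFA-1 chain of leukocytes, had 8 and 4 counts for negative, 5 and 131 for TEB-distal and 14 and 3 for nipple-proximal libraries. TEB-distal replicate 2 alone was high, and it also had the highest summed leukocyte markers (314 CPM). Tln2, talin 2, had 159 and 1 counts for negative, 59 and 158 for TEB-distal and 22 and 4 for nipple-proximal libraries. Both TEB-distal libraries lay above both nipple-proximal ones, with a log2 fold change of 2.59 ± 2.21 that ran from 1.8 to 4.31 as libraries were left out, while the negative libraries differed most from each other. Itga8, which pairs with β1 to bind nephronectin, had 1177 and 2 counts for negative, 2172 and 870 for TEB-distal and 389 and 850 for nipple-proximal libraries. Negative replicate 2 was near 0 while replicate 1 was not, and the log2 fold change in TEB-distal cells, 2.17 ± 1.76, ran from 1.17 to 9.48 as libraries were left out.

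The spread within groups was set beside the GC content of the transcripts. Of the 23 members with a mean of at least 10 CPM, 13 differed more than 2-fold between the negative libraries, 14 between the TEB-distal and 4 between the nipple-proximal libraries, with a median ratio of 2.42, 2.21 and 1.61. The difference of replicate 1 from replicate 2, in log2 CPM, had a Pearson's r with the GC content of the transcript of 0.318 for negative, -0.559 for TEB-distal and 0.346 in the nipple-proximal group over 36 members. Over 8091 genes r was 0.581, -0.638 and 0.354. These are correlations across genes of the same libraries, given as a description. AT-rich Itgb1, Itgav, Itgb8 and Fermt2 were high in negative replicate 2, and GC-rich Itgb4, Itga3 and Itga5 in negative replicate 1 and TEB-distal replicate 2. Others went against this in the negative libraries, with the AT-rich Itga8 and Itga2 higher in replicate 1 and the GC-rich Fermt3 and Itga7 slightly higher in replicate 2.

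**Figure D4:**
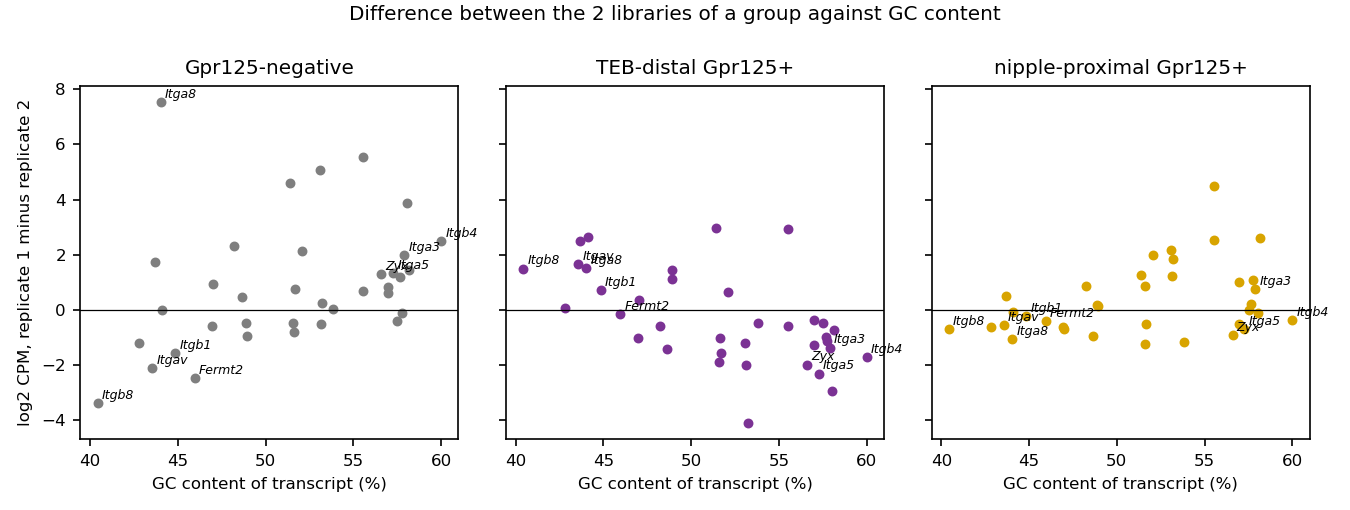
Difference between the 2 libraries of a group (log2 CPM, replicate 1 minus replicate 2) against GC content of the transcript (%), 1 point for each of the 36 members tested, in 3 panels for the groups. The points rise loosely with GC content in the negative panel (r = 0.318) and fall in the TEB-distal panel (r = -0.559).

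When the GC trend of each library was taken out, a step chosen after seeing the data, members with more than 2-fold between libraries went from 13 to 9, from 14 to 9 and from 4 to 2, and the median ratio to 1.57, 1.56 and 1.49. Itgb1 then had levels of 439 and 630 CPM for negative, 677 and 713 for TEB-distal and 934 and 904 for nipple-proximal libraries. The groups no longer overlapped, with negative lowest and nipple-proximal highest. Pxn showed the same order without overlap at 31.9 and 34.8, 51.9 and 52.2, and 80.7 and 82.5 CPM. Its unadjusted p by edgeR was 0.013 in nipple-proximal cells. Itga5 had 47.5 and 46, 47.8 and 125, and 54.8 and 107 CPM. Both Gpr125+ groups then lay above the negative libraries, narrowly for TEB-distal replicate 1. Itga3 still overlapped, at 303 and 193, 194 and 253, and 319 and 225 CPM, and Itga1 kept its order at 1.66 and 1.41, 15.5 and 32.3, and 8.61 and 10.1 CPM. As a share of alpha chain RPKM, however, Itga3 was then lowest in the TEB-distal libraries, at 57.4% and 45.1%, 32.7% and 39.2%, and 54.3% and 41.7%. The Itgb1 share of beta chain RPKM was 72.7% and 82.8%, 79.8% and 79.1%, and 83.7% and 80.5%, so TEB-distal libraries were narrowly below nipple-proximal ones, and the shares of Itga6 and Itgb4 overlapped between all groups. For the Itga7 share, negative libraries (0.393% and 1.33%) now overlapped nipple-proximal ones (1.66% and 1.02%).

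With this step TEB-distal and negative libraries did not overlap in 18 members (15 higher and 3 lower), beside 29.8% of all genes, and nipple-proximal and negative libraries in 17 (10 higher and 7 lower), beside 34.5%. The Gpr125+ groups did not overlap in 13 members (11 higher and 2 lower in TEB-distal cells), beside 38.7%. The 10 higher members and Parvb of the uncorrected TEB-distal comparison were all among them, while Itga7 and Tln1 were lost in nipple-proximal cells and Vcl between the Gpr125+ groups. No member was called with this step in any of the 3 comparisons.

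**Figure D5:**
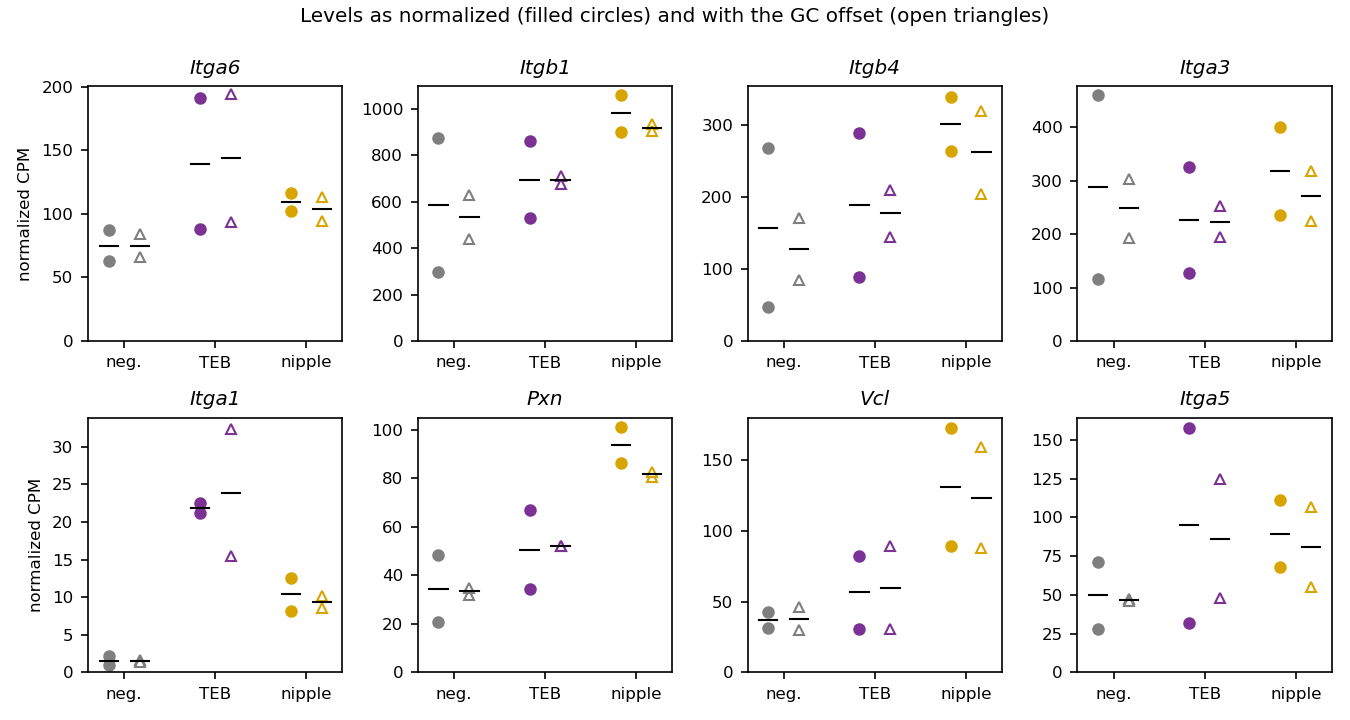
Normalized CPM of 8 members in the negative (gray), TEB-distal (purple) and nipple-proximal (yellow) libraries, as normalized (filled circles) and with the GC trend taken out (open triangles), with the mean of each pair as a bar. For Itgb1 the negative libraries come together from 296 and 875 to 439 and 630 CPM, and the TEB-distal libraries from 863 and 528 to 677 and 713.

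The wider adhesion machinery was examined through lists of other genes. Of 33 further focal adhesion genes tested, Rsu1 and Tgfb1i1 were higher and Tns1 was lower in TEB-distal than in negative cells at an unadjusted p under 0.05, which is 3 of 33 beside 6.05% of all genes. Dock1 was lower in nipple-proximal cells, 1 of 33 beside 3.55%. Between the Gpr125+ groups 0 had such a p, beside 2.21%. Of 6 hemidesmosome genes 0 had such a p in any comparison. The median log2 fold change of the focal adhesion genes was 0.31 and 0.22 in the first and the second comparison, beside 0.03 and 0 over all genes.

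Of 30 integrin ligands tested, 8 were higher and 2 lower in TEB-distal than in negative cells at an unadjusted p under 0.05, beside 3.8% and 2.25% of all genes, with a median log2 fold change of 1.13 beside 0.03. Among the higher ones were fibronectin (Fn1), nephronectin (Npnt), the laminin chain Lama3, the collagen chains Col1a2, Col4a1 and Col4a2, and fibrillin 1 (Fbn1). Col4a1, a chain of basement membrane collagen, had levels of 223 and 156 CPM for negative, 825 and 1892 for TEB-distal and 562 and 417 for nipple-proximal libraries. All 3 groups were apart, and the log2 fold change in TEB-distal cells was 2.84 ± 0.81 (edgeR, unadjusted p = 0.00786). The summed fibroblast markers, which include Col1a2 and Fbn1, are given above, and their part was not tested.

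The 2 lower ligands in TEB-distal cells were Vcam1 and Icam2, counter-receptors of leukocyte integrins known from endothelium. Icam2 had 480 and 178 counts for negative, 1 and 1 for TEB-distal and 169 and 19 for nipple-proximal libraries (edgeR, unadjusted p = 0.00604). Vcam1 had 20.4 and 316 CPM for negative, 2.34 and 9.33 for TEB-distal and 33 and 22.9 in nipple-proximal libraries (edgeR, unadjusted p = 0.00883). TEB-distal libraries were the lowest for both, as they were for the endothelial markers. Within the negative group, however, Vcam1 was higher in replicate 2, and the summed endothelial markers in replicate 1 (1160 against 804 CPM). Of the 12 endothelial markers, 8 were lower in TEB-distal than in negative cells at an unadjusted p under 0.05, and 0 were higher, beside 2.25% and 3.8% of all genes. The part of endothelial cells in the Vcam1 and Icam2 levels was not tested.

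In nipple-proximal cells 2 ligands were higher than in negative cells (Lama3 and Fbn1) and 2 lower (Spp1 and Lama2), beside 2.62% and 0.927% of all genes. Lama2, the laminin chain of muscle and nerve basement membranes, had 79 and 582 counts for negative, 191 and 49 for TEB-distal and 1 and 0 for nipple-proximal libraries (edgeR, unadjusted p = 0.008). Between the Gpr125+ groups, Fn1, Spp1, Lama2 and Col1a2 were higher and Icam2 was lower in TEB-distal cells, 4 and 1 of 30 beside 0.747% and 1.46% of all genes. Fn1 levels were 32.1 and 11.6 CPM for negative, 168 and 174 for TEB-distal and 17.2 and 5.04 in nipple-proximal libraries, with a log2 fold change of 3.94 ± 0.92 between the Gpr125+ groups (edgeR, unadjusted p = 0.00291). The TEB-distal libraries were close to each other and above the other 4. Spp1, osteopontin, had 798 and 60.9, 1720 and 50.8, and 4.81 and 8 CPM, and its libraries differed widely within both the negative and the TEB-distal group (edgeR, unadjusted p = 0.00825). None of these ligands passed after adjustment over all genes, with the smallest adjusted p over all genes at 0.485, 1 and 1 in the 3 comparisons.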

How the data were processed

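RNA of sorted cells was made into libraries with a low-input SMART-Seq kit. The authors aligned reads to mm10 with STAR (2.7.3 in the submitters' processing notes) and deposited raw HTSeq counts per gene symbol for each library, counted without strand. The annotation release is not given in the sources used here. Groups and replicate numbers came from the labels. Nothing marks the replicates as separate experiments beyond their being separate pools, so p-values measure the spread between these libraries.

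Tests used edgeR 4.0.16 under R 4.3.3 (TMM, filterByExpr, robust quasi-likelihood F-tests, all 6 libraries in 1 fit, 17268 genes, Benjamini-Hochberg over all of them). Calls needed an adjusted p under 0.1 and at least 2-fold, as in the study. The exact permutation test of 2 against 2 libraries cannot go below p = 0.333, so none is given. Alternatives were DESeq2 1.42.0, its size factors, no filter, the 4 compared libraries alone, a replicate block, and leaving out each library. An edgeR fit with a GC offset (lowess of log2 CPM on the GC content of the longest GENCODE M21 transcript, known for 98.1% of genes tested) was added after seeing the data. RPKM used merged exon lengths of GENCODE M21 (mm10), which held 96.4% of symbols.

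Members and lists (focal adhesion, hemidesmosome, integrin ligands and 7 sets of cell type markers) were chosen with earlier results of these data known. Values in every library are given for Itga6, Itgb1, Itgb3 and Itgb4, for members with an unadjusted p under 0.05, for the 3 highest of each family by mean RPKM, and for members whose groups did not overlap at a log2 fold change over 2. Other pathway genes have values at an unadjusted p under 0.01. Some genes of these lists are not reported here by name. Floors and counting intervals cover counting error only, since the libraries hold no molecular identifiers. On simulated data (17268 genes, 200 changed, TEB-distal against negative) edgeR recovered 0% of 4-fold and 56% of 64-fold changes, and DESeq2 16% and 77%. False calls in that comparison were 3 and 24 by edgeR and 259 and 351 by DESeq2. In a comparison where nothing was changed, edgeR made 2 and 1 calls and DESeq2 229 and 265. The simulated counts were drawn with edgeR's own estimates of spread. The common biological coefficient of variation was 0.967.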

Additional observations from a re-analysis of the deposited data

Results flagged for a closer look

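Itga10, a collagen-binding alpha chain, and Itgax drew attention because of the order of their groups. Both TEB-distal libraries lay above both negative libraries, and both nipple-proximal libraries lay below the negative ones. For Itgax the lower part of this order rested on few counts, 5 and 7 for negative against 0 and 2 for nipple-proximal libraries. The ratio of negative to nipple-proximal libraries was 3.28, with a counting interval of 0.731 to 30.2, which includes no difference. For Itga10 the levels were 2.47 and 2.44 CPM for negative, 3.16 and 4.46 for TEB-distal and 0.589 and 1.41 for nipple-proximal libraries, and the difference between the Gpr125+ groups was 1.92 on the log2 scale (edgeR, unadjusted p = 0.253, adjusted p = 1). For Itgax that difference was 5.17 (edgeR, unadjusted p = 0.0544, adjusted p = 1, 0.198 to 1 over the alternatives). Of the exonic bases of Itga10, 1739 of 5186 are shared with Gm42957.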

How the results depend on the processing

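The number of members called depended on the tool. Against 0 by edgeR, DESeq2 on all 6 libraries called 4 in TEB-distal against negative (Itga1, Itga7, Itgb6, Parvb), 1 in nipple-proximal against negative (Itgb6) and 0 between the Gpr125+ groups, and on the 4 compared libraries 3 (Itga1, Itgb6, Parvb), 0 and 0. Over the alternatives the adjusted p ran from 0.00255 to 1 for Itga1, 0.0993 to 1 for Itga7, 0.00764 to 1 for Itgb6 and 0.00245 to 1 for Parvb in TEB-distal cells, and from 0.0714 to 1 for Itgb6 in nipple-proximal cells. Over all genes, calls in the 3 comparisons were 943, 321 and 129 by DESeq2 on 6 libraries, 667, 317 and 360 on 4, and 137, 58 and 39 by edgeR without the filter. The cause was not tested. In the simulation above both tools called unchanged genes, and its counts were drawn with edgeR's own estimates of spread. Over the alternatives the unadjusted p reached 0.203 for Itga1, 0.059 for Itgb6 and 0.309 for Vcl in nipple-proximal cells and 0.153 for Itga7 and 0.111 for Parvb in TEB-distal cells, and stayed at or under 0.0326 for Itga1 and 0.0477 for Itgb6 in the latter. Members with an unadjusted p under 0.05 went from 3 to 5 in nipple-proximal against negative with the GC offset, and from 0 between the Gpr125+ groups to 2 with either DESeq2 fit and 1 with size factors, no filter, 4 libraries or the GC offset.

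Leaving out 1 library gave 0 to 1 members called (Itga8, without negative replicate 1) in each comparison with negative cells and 0 between the Gpr125+ groups. Members with an unadjusted p under 0.05 were 2 to 8, 0 to 6 and 0 to 1, the highest all without negative replicate 1, and the lowest 2 without TEB-distal replicate 2 and 0 without nipple-proximal replicate 2. All genes called were 0 to 747, 0 to 335 and 0 to 12, with 747 and 335 without negative replicate 1 and 12 without nipple-proximal replicate 2. A group then has 1 library, assumed to vary like the others. Log2 fold changes that turned ranged from -0.47 to 1.23 (Itgb1), -1.33 to 0.67 (Itgb3) and -0.84 to 1.89 (Itgb4) in TEB-distal cells, and from -2.02 to 0.61 for Itgb3 in nipple-proximal cells. Under the other settings none of the 21 log2 fold changes followed turned.

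With the replicate number as a block, 0 members and 0 genes were called, and 4, 2 and 0 members had an unadjusted p under 0.05. Deviations of same-numbered libraries correlated at -0.0347, 0.194 and -0.00495 across genes. The labels do not say whether same-numbered libraries were prepared together. These correlations cannot decide it, since each library also carries its own GC trend.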
